A study of Mus musculus with 8 samples.

Results

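The genes described here are 35 components of the epithelial wall that a blastocyst builds and inflates: keratins, tight junction, adherens junction and desmosome proteins, polarity proteins, and the pump and water channels of the cavity. They were chosen as a list of symbols by function, with earlier results of these data known. Their counts beside all genes are therefore a description and not a test. All 35 were found in the deposited table, and the table held 24888 genes in all. They fell into 4 keratins, 10 tight junction membrane proteins, 3 tight junction plaque proteins, 4 polarity proteins, 3 adherens junction proteins, 6 desmosome proteins, 2 other surface and cortex proteins and 3 cavity pump and water channel proteins.

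Each of the 8 groups was a single mouse RNA library, and all descended from E14 embryonic stem cells (ESC) grown with serum, LIF, CHIR99021 and PD0325901. Expanded potential stem cells (EPSC) were ESC kept for 5 passages in a medium with LIF and inhibitors of GSK3, MEK, JNK, p38, Src family kinases and tankyrase, and both stem cell states were sequenced untreated and 3 days after T0901317 (T09), an agonist of the liver X receptors, was added at a dose written as 1 uM/mL. Blastoids, aggregates of EPSC that model the blastocyst, were grown in microwells with FGF4, heparin and CHIR99021, and from the second day with BMP4 and A83-01. The day 2 blastoids were aggregates of transfected EPSC, harvested after 48 hours: the siRNA targeted Nr1h2 in siNr1h2, and the siNT library served as its comparison. The day 5 blastoids were picked manually and labelled Type I or Type III. Per the labels both types came from EPSC that had been treated with T09, and no T09 was listed for the blastoid medium. How many blastoids went into a library was not given in the sources used here.

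In the first days of mouse development the outer cells of the embryo become trophectoderm, an epithelium with keratin filaments, an apical domain set by the PAR and Crumbs proteins, adherens junctions built on E-cadherin and a belt of tight junctions. Sodium pumps on the basal side of these cells move ions into the spaces between cells, water follows through aquaporins, and the tight junctions hold the fluid so that the blastocoel can expand. The inner cells form the pluripotent epiblast and the primitive endoderm, which later becomes an epithelium of its own, so many of these proteins are not private to the trophectoderm.

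Total counts ran from 24666260 to 40781415 per library, and levels are in CPM (the count scaled to library depth) after TMM normalization. All levels are of RNA, also where a gene is named by its protein, and protein was not measured in these libraries. The labels were checked against their own targets: Nr1h2 stood at 37.7 CPM in siNr1h2 and 53.9 in siNT, and Abca1, a liver X receptor target, at 340 against 51.0 in treated and untreated ESC and 211 against 18.3 in EPSC. Abca1 was at 5.07 CPM in siNr1h2 and 3.40 in siNT, and at 207 in Type I and 5.38 in Type III, which carry the same T09 label. Pluripotency markers, 10 in number, summed to 4721 to 6689 CPM in the stem cell libraries, 2223 to 2311 at day 2, 1083 in Type III and 519 in Type I. The sum of 10 trophectoderm markers was 135 to 178 CPM in the stem cells, 280 to 282 at day 2 and 323 to 333 at day 5. That of 10 primitive endoderm markers was 68.7 to 260 CPM in the stem cells, 2713 to 2857 at day 2 and 4683 to 5901 at day 5. In bulk RNA, fewer cells of a type and less RNA per cell cannot be told apart, and the part of these cell types in the results below was not tested. No group had a replicate. A difference between 2 libraries therefore carried no p-value, and a gene was counted as higher or lower when its TMM-scaled ratio, with a prior count of 2, was at least 2-fold, its 95% exact Clopper-Pearson interval excluded a ratio of 1 and at least 20 counts stood in 1 library. Those intervals cover counting error only.

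Across the 8 libraries the 35 genes ranged from some that were nearly silent in stem cells and abundant at day 5 to others at a high level throughout. Both day 5 blastoids stood above all other libraries for 22 of the 35 genes, against 25.9% of the 15341 genes with at least 20 counts in 1 library. For 15 genes the order was day 5 above day 2 above all stem cell libraries, a pattern that 10.7% of all those genes had: Krt7, Krt8, Krt18, Krt19, Cldn6, Cldn7, Marveld2, Marveld3, Cgn, Pard6b, Crb3, Dsc2, Pkp2, Epcam and Aqp8. The highest level was at least 100-fold the lowest for 9 of the 35 genes, all 4 keratins among them, and for 1.95% of all genes. The range was under 2-fold for Tjp1, Pard3, Cdh1, Ctnna1, Ctnnd1 and Ezr, 6 genes of the junctional core and cortex, and for 33.8% of all genes. Both day 5 blastoids stood below all other libraries only for Prkci and Aqp3, 2 of 35 against 23.5% of all genes. The groups share cultures and media with nothing else repeated, so these counts describe the 8 libraries and are not a test.

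**Figure D1:**
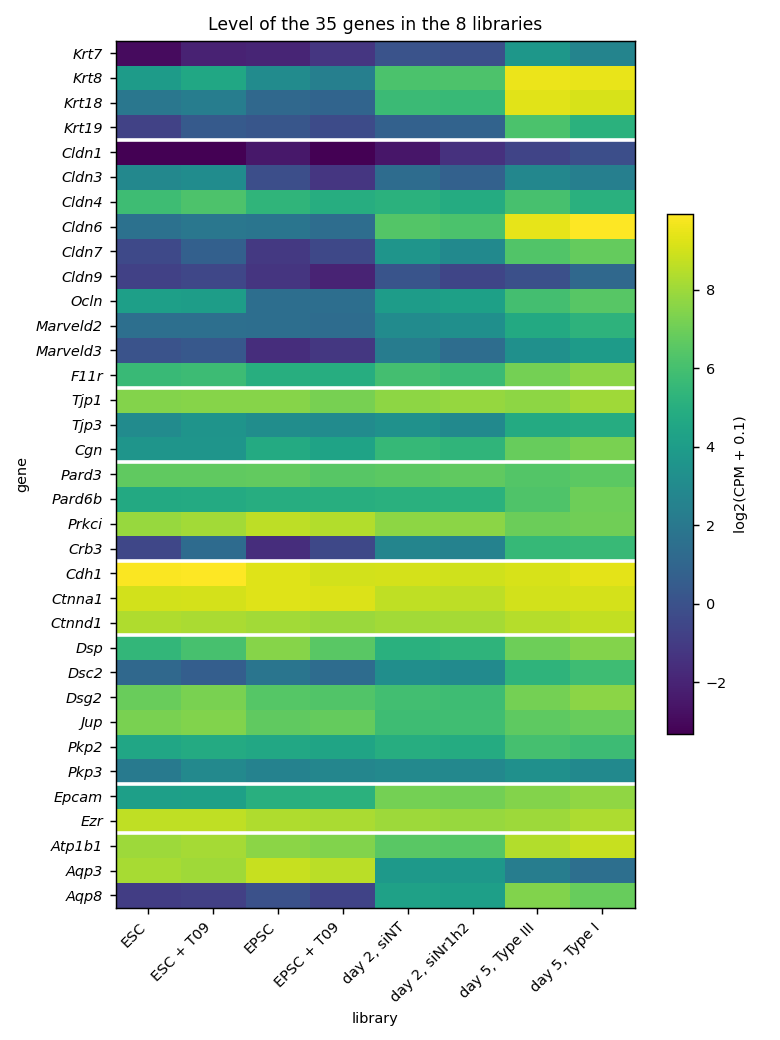
Each row is a gene and each column a library, with colour giving log2(CPM + 0.1), and white lines part the 8 functional groups. Krt8, Krt18, Cldn6 and Aqp8 run from dark in the 4 stem cell columns to bright at day 5, Aqp3 runs the other way, and Cdh1, Ctnna1, Ctnnd1 and Tjp1 are bright in all 8.

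Per kilobase of transcript the most abundant of the 35 in EPSC was Aqp3, at 254 CPM per kilobase, followed by Ctnna1 at 168 and Cdh1 at 138. In the Type I library the order was led by Cldn6 at 578 CPM per kilobase, Krt18 at 385, Krt8 at 366 and Atp1b1 at 172, with Cdh1 at 149 and Ctnna1 at 142. The first places were thus held by a water channel and the adherens junction in EPSC, and by a claudin and a keratin pair in Type I. Cldn6 in EPSC stood at 2.13 CPM per kilobase and Aqp3 in Type I at 1.56.

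The DNA just before the start of the genes that differed most between blastoids and EPSC is shown because these genes had the widest ratios of the list. The 3 members with the largest ratio of Type I to T09-treated EPSC, Cldn6, Krt18 and Aqp8, and the member with the lowest, Aqp3, are each given as the 250 bases before the RefSeq start, 5′ to 3′ on the gene's strand, from RefSeq on build GRCm38.p6, a later build than the mm9 of the counts. Capitals mark letters that match, on either strand, AACCGGTT (Grainyhead-like factors), GGAATG (TEAD factors), CAGGTG (the E-box of Snail and Zeb repressors) or GCCNNNGGC (AP-2 factors).
Cldn6, chr17:23679115-23679364, plus strand: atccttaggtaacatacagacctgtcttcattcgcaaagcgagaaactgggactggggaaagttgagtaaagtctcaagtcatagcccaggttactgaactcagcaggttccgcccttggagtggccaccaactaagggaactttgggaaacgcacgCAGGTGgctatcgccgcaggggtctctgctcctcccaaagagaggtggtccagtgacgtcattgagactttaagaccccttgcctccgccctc
Krt18, chr15:102027966-102028215, plus strand: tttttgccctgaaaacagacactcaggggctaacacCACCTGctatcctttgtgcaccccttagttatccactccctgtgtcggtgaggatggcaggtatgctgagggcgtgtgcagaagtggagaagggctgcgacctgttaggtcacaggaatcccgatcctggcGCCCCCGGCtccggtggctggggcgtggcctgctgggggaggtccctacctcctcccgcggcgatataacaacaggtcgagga
Aqp8, chr7:123462044-123462293, plus strand: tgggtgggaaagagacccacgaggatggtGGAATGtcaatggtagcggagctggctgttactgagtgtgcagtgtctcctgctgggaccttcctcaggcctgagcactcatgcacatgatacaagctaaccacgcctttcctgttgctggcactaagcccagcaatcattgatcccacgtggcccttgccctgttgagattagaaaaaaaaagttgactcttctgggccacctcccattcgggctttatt
Aqp3, chr4:41098184-41098433, minus strand: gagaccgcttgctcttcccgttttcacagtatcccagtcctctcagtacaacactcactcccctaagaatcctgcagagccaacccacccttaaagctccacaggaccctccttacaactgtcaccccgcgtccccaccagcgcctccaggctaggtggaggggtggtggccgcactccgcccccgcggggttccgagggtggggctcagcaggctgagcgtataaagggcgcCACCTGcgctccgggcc
Krt18 held 1 E-box and 1 AP-2 match in these bases, Cldn6 and Aqp3 1 E-box match each, and Aqp8 1 TEAD match and no E-box. The table held windows of 300 bases, 250 before to 50 after the start, for 26 of the 35 genes, in 33 windows (Krt19, Cldn9, Marveld3, Cdh1, Ctnna1, Dsc2, Dsg2, Pkp2 and Pkp3 had no entry). CAGGTG was in 63.6% of the members' windows and in 20.2% of all 32851 windows, and GCCNNNGGC in 36.4% and 16.6%. The median GC content was 61.0% in the members' windows and 52.7% in all windows, and its part in these shares was not tested. GGAATG was in 15.2% and 14.7%, and AACCGGTT in 0 of the 33 and in 0.146% of all. The E-box windows belonged to 17 genes, among them Krt8, Ocln, Crb3 and Epcam, which were higher in blastoids, and Pard3, which stayed within 2-fold in all 3 blastoid comparisons. A match describes these letters and is not a binding site.

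Some of the 35 genes lie side by side. Among protein-coding genes of RefSeq GRCm38.p6, 4 pairs of members were direct neighbours: Krt8 with Krt18, Cldn6 with Cldn9, Cldn3 with Cldn4, and Ocln with Marveld2. Krt8 and Krt18 both had ratios of Type I to T09-treated EPSC above 100-fold, at log2 7.12 (95% interval 6.93 to 7.33) and 8.22 (7.93 to 8.61). Ocln and Marveld2 were both higher, at 5.00 (4.75 to 5.32) and 3.93 (3.66 to 4.27). The claudin pairs were further apart, with Cldn6 at 8.47 (8.22 to 8.79) beside Cldn9 at 3.45 (2.67 to 5.35), and Cldn3 at 3.79 (3.18 to 4.93) beside Cldn4 at 0.15 (0.04 to 0.27). Claudin genes resemble one another in sequence, the way the counting divided shared reads was not given in the sources used here, and how much of the low Cldn9 signal came from Cldn6 reads was not tested.

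The comparison of blastoids with EPSC shows which components of an epithelial wall were at a higher level in the aggregates. At day 2, in siNT against untreated EPSC, 14 of 34 tested members were higher and 3 were lower, against 14.5% and 11.3% of all 14496 genes tested, with a median log2 ratio of 0.49 over the members and -0.04 over all genes. At day 5 in Type I against T09-treated EPSC, 23 of 35 members were higher and 2 lower, against 22.7% and 18.1% of all genes, with medians of 2.62 and -0.03. In Type III against the same EPSC library, 21 of 34 tested members were higher and 2 lower, against 21.7% and 16% of all genes, with medians of 1.92 and 0.00. The Type I and Type III comparisons share their EPSC library and are given side by side only. Day, medium, aggregation, transfection and T09 history differ together between the groups and cannot be told apart.

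**Figure D2:**
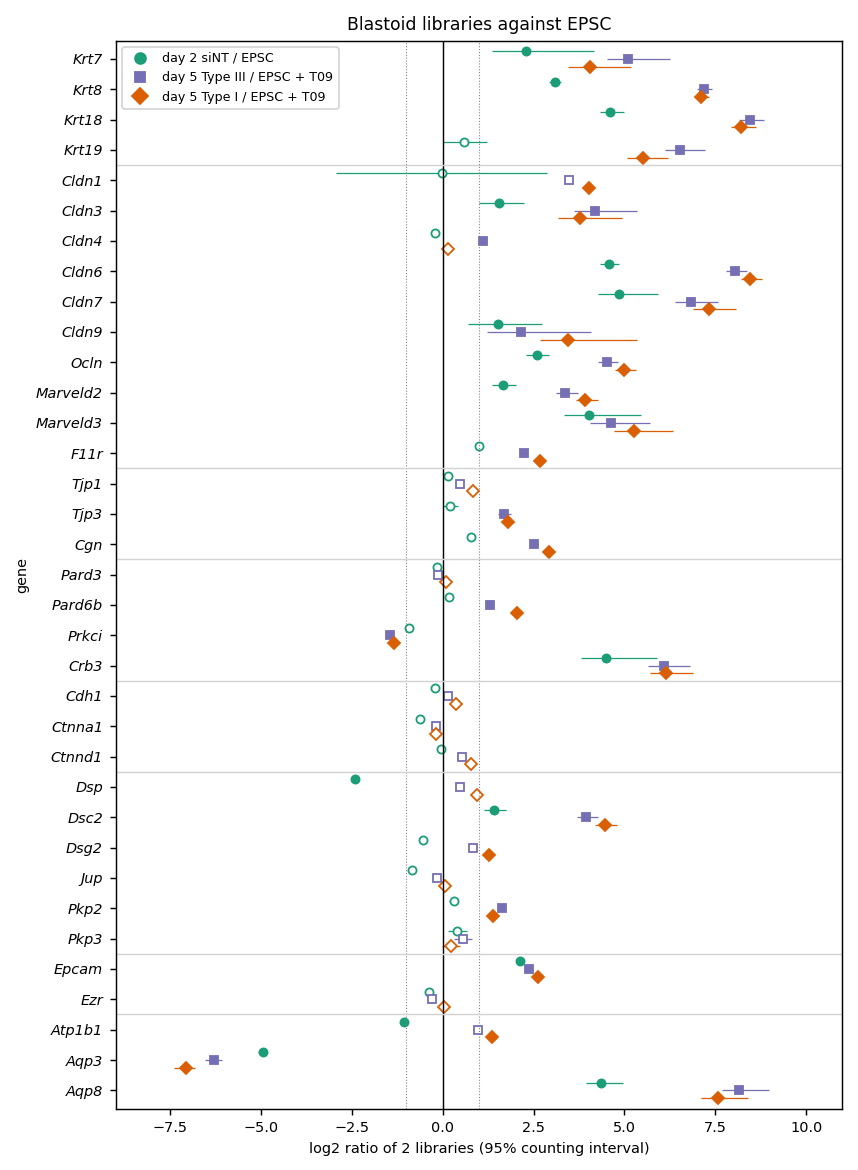
Log2 ratios of the day 2 siNT library to EPSC (circles) and of the day 5 Type III (squares) and Type I (diamonds) libraries to T09-treated EPSC, with 95% counting intervals. Filled symbols were counted as higher or lower, dotted lines mark 2-fold, and the open-ended intervals of Cldn1 are not drawn; the keratins, Cldn6, Cldn7, Crb3 and Aqp8 lie far to the right and Aqp3 far to the left.

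Keratins, the intermediate filament proteins of simple epithelia, had the largest median ratio of the functional groups in all 3 comparisons. Krt8, the type II keratin that pairs with Krt18, stood at 15.1 CPM in ESC, 23.2 in T09-treated ESC, 8.35 in EPSC, 5.11 in T09-treated EPSC, 71.1 in siNT, 75.4 in siNr1h2, 754 in Type III and 717 in Type I. Krt18, its type I partner, stood in the same order at 3.74, 4.74, 2.12, 1.80, 53.0, 48.1, 648 and 553 CPM. For both genes the 3 stages did not overlap: every stem cell library was below both day 2 libraries, and these were below both day 5 libraries. Krt8 was 8.47-fold higher at day 2 than in EPSC, and 139-fold (Type I) and 146-fold (Type III) higher at day 5 than in T09-treated EPSC. Krt18 was higher by 24.4-fold at day 2, 298-fold in Type I and 349-fold in Type III.

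The other keratins were at low levels until day 5. Krt19, a type I keratin without the usual tail, had 0.512, 1.23, 1.05, 0.716, 1.60, 1.79, 71.9 and 35.1 CPM in that order of libraries. Its day 2 ratio to EPSC was log2 0.59 (0.02 to 1.22), under 2-fold, whereas the day 5 ratios were 5.51 (5.08 to 6.20) in Type I and 6.54 (6.12 to 7.23) in Type III. Krt7, a type II keratin of trophoblast and ductal epithelia, had 0.0301, 0.140, 0.157, 0.321, 0.965, 0.839, 12.8 and 6.16 CPM, of which the ESC value rests on 1 count. Krt7 was higher at day 2 (log2 2.29, 1.37 to 4.15) and at day 5 (4.06 in Type I, 5.10 in Type III). Per kilobase, Krt8 and Krt18 together made up most of the keratin level in every library: Krt8 led in ESC with 72.5% against 24.4% for Krt18, while in Type I they were nearly equal, at 47.3% and 49.7%.

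The genes of tight junction membrane proteins, which seal the space between cells, were mostly higher in blastoids. Of those tested, 7 of 9 were higher at day 2, 9 of 10 in Type I and 9 of 9 in Type III, and 0 lower in each. Of all genes 14.5%, 22.7% and 21.7% were higher in these comparisons. Cldn6, a claudin of early embryonic epithelia, stood at 2.92 CPM in ESC, 3.66 in T09-treated ESC, 3.46 in EPSC, 2.59 in T09-treated EPSC, 83.3 in siNT, 71.4 in siNr1h2, 702 in Type III and 937 in Type I. It had the largest ratio of the 35 in Type I against T09-treated EPSC, 354-fold, and was 23.8-fold higher at day 2 and 265-fold higher in Type III. Cldn7, a claudin found in many epithelia, had 0.663, 1.56, 0.367, 0.642, 12.0, 7.70, 79.8 and 112 CPM in the same order, and its day 2 ratio, log2 4.85 (4.27 to 5.92), was the largest of the 35 at that day. For both genes every blastoid library lay above every stem cell library.

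Cldn4, by contrast, was present throughout. It stood at 56.5, 75.8, 40.2, 30.5, 34.5, 28.4, 65.8 and 33.9 CPM, so that the stem cell and blastoid libraries overlapped. Its ratio was log2 -0.22 at day 2 and 0.15 in Type I, and only Type III passed 2-fold (1.11, 1.01 to 1.21). Cldn4 therefore made up 78.9% to 87.3% of the claudin level per kilobase in the 4 stem cell libraries, 23.2% to 23.3% at day 2, 6.77% in Type III and 2.72% in Type I. Cldn6 took its place, from 4.31% to 8.38% in the stem cells to 62.6% to 65.6% at day 2, 80.9% in Type III and 84.2% in Type I. These shares are over the 6 claudins of the list.

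**Figure D3:**
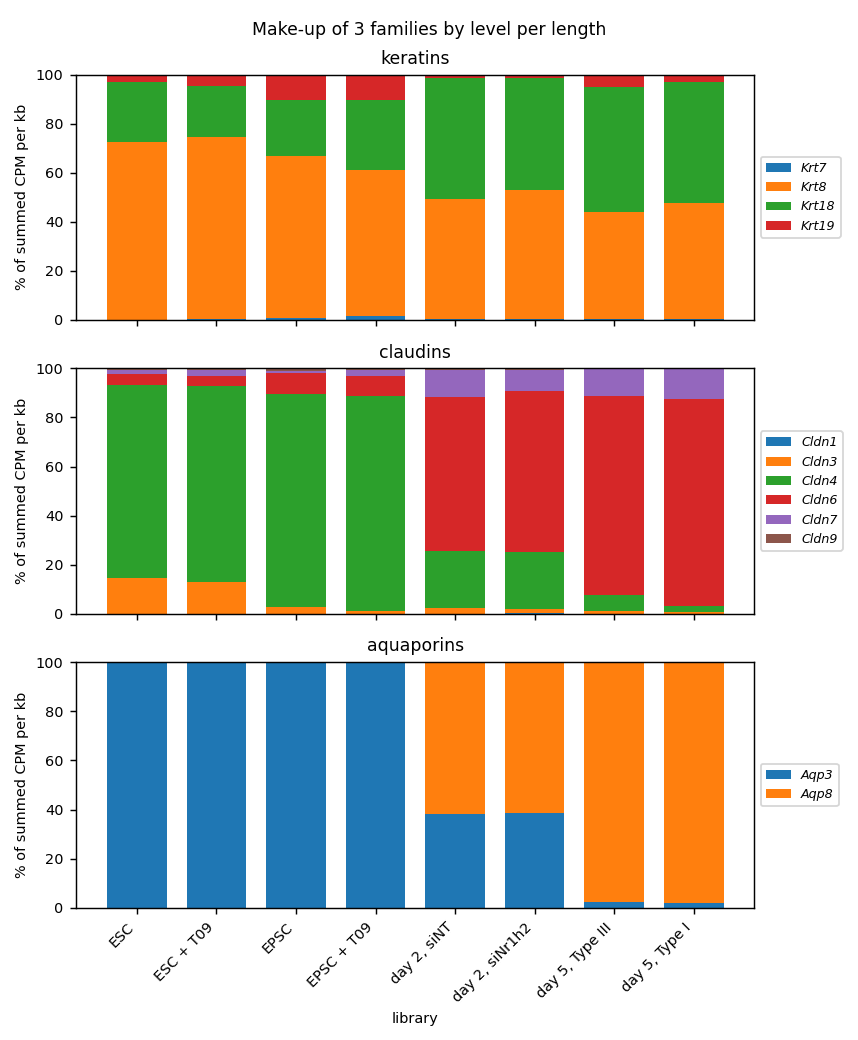
Bars show, for each library, the percentage of the family's summed CPM per kilobase that each gene held, for the 4 keratins, 6 claudins and 2 aquaporins of the list. Cldn4 fills most of the claudin bar in the 4 stem cell libraries and Cldn6 at day 2 and day 5; Aqp3 fills over 99% of the aquaporin bar in the stem cells and Aqp8 98.1% in Type I.

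The remaining claudins were low. Cldn3 had 7.14, 8.45, 0.812, 0.321, 2.46, 1.60, 6.81 and 5.10 CPM, so the day 5 blastoids lay far above EPSC (log2 3.79 in Type I, 4.19 in Type III) but below both ESC libraries. Cldn9 had 0.482, 0.614, 0.314, 0.148, 0.991, 0.572, 0.852 and 2.15 CPM and was counted as higher at day 2 (log2 1.51), in Type I (3.45) and in Type III (2.16). Cldn1, a claudin best known from the skin barrier, was at 0 counts in ESC, T09-treated ESC and T09-treated EPSC, at 3 counts in EPSC and siNT, 7 in siNr1h2, 18 in Type III and 29 in Type I. Against a floor of 3 counts in T09-treated EPSC it was at least 10.9-fold higher in Type I and at least 7.39-fold higher in Type III. The Type III count was under the minimum of 20.

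The MARVEL-domain proteins and the adhesion molecule F11r were higher in day 5 blastoids, from different starting levels in the stem cells. Ocln, occludin, stood at 17.6, 16.7, 2.62, 2.69, 16.0, 18.3, 62.7 and 87.9 CPM, so that its day 2 level was close to that of ESC and 5.99-fold above EPSC. Marveld2, tricellulin, which seals the corners between cells, had 2.74, 2.79, 2.62, 2.45, 8.41, 9.65, 26.0 and 38.0 CPM, with all 4 stem cell libraries at nearly the same level. Marveld3 had 0.934, 1.17, 0.236, 0.346, 4.62, 2.52, 9.80 and 15.2 CPM. Log2 ratios to T09-treated EPSC were 5.00 and 4.51 for Ocln in Type I and Type III, 3.93 and 3.38 for Marveld2, and 5.26 and 4.62 for Marveld3. F11r, which encodes JAM-A, had 49.9, 54.4, 31.2, 30.6, 62.3, 52.4, 143 and 197 CPM. It was just under 2-fold at day 2 (log2 1.00, 0.90 to 1.10) and was counted as higher in Type I (2.68) and Type III (2.23).

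The plaque proteins behind the junction had smaller ratios. Tjp1, ZO-1, the scaffold that links claudins to actin, had 177, 183, 186, 146, 204, 224, 203 and 262 CPM, and none of its 3 blastoid ratios reached 2-fold. Tjp3, ZO-3, had 8.41, 11.5, 8.98, 8.42, 10.4, 7.82, 27.2 and 29.2 CPM, level until day 2 and higher at day 5 (log2 1.79 in Type I, 1.68 in Type III). Cgn, cingulin, which ties the plaque to myosin, had 12.0, 11.8, 27.2, 20.4, 46.5, 40.0, 116 and 154 CPM. Its day 2 ratio stayed under 2-fold (log2 0.77, 0.67 to 0.89), and at day 5 it was 7.54-fold (Type I) and 5.68-fold (Type III) higher. At day 2, 7 of 9 tested membrane proteins of the junction and 0 of 3 plaque proteins were above 2-fold. Of all genes 14.5% were higher, and 3 plaque genes are too few to be told from that share.

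Polarity proteins, which mark the apical side, went in different directions. Crb3, the small Crumbs protein of mammalian epithelia, had 0.603, 2.37, 0.236, 0.642, 6.40, 5.76, 47.0 and 49.1 CPM, and was 22.5-fold higher at day 2, 70.7-fold in Type I and 67.5-fold in Type III. Pard6b, the adaptor of the PAR complex, had 26.7, 27.6, 30.4, 31.0, 34.4, 34.5, 77.0 and 129 CPM, close to level through day 2 and 4.16-fold (Type I) and 2.48-fold (Type III) higher at day 5. Pard3, the scaffold of that complex, stayed between 82.1 and 108 CPM in all 8 libraries, the narrowest range of the 35. Prkci, the atypical protein kinase C that the complex carries, was lower in blastoids, with 237, 277, 385, 337, 202, 200, 124 and 133 CPM. Its ratio was log2 -0.93 (-0.97 to -0.89) at day 2, -1.34 in Type I and -1.44 in Type III. RNA of the kinase was thus lower at day 5 while that of Crb3 and Pard6b was higher.

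RNA of the adherens junction genes was abundant in every library, and 0 of 3 passed 2-fold in any of the 3 blastoid comparisons. Of all genes 14.5% to 22.7% were higher and 11.3% to 18.1% lower, and 3 genes are too few to be told from these shares. Cdh1, E-cadherin, the adhesion receptor of the junction, had 923, 971, 611, 516, 531, 502, 567 and 658 CPM, highest in ESC. Ctnna1, alpha-catenin, which links it to actin, had 527, 545, 627, 599, 404, 386, 522 and 529 CPM. Ctnnd1, p120-catenin, which holds cadherin at the membrane, had 323, 302, 276, 245, 269, 280, 352 and 420 CPM. Of the 3, Ctnnd1 alone was above all other libraries in both day 5 blastoids.

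Desmosomes, which anchor keratin filaments at the membrane, were uneven, with day 2 below both earlier and later samples for several members. Dsp, desmoplakin, the plaque protein that grips keratin, had 44.1 CPM in ESC, 67.2 in T09-treated ESC, 181 in EPSC, 92.3 in T09-treated EPSC, 34.0 in siNT, 39.8 in siNr1h2, 129 in Type III and 179 in Type I. It was 5.31-fold lower at day 2 than in EPSC, while its day 5 ratios to T09-treated EPSC were log2 0.95 and 0.48 in Type I and Type III, under 2-fold. Dsg2, the desmosomal cadherin of simple epithelia, had 120, 152, 87.7, 80.3, 59.7, 55.1, 142 and 194 CPM, and Jup, plakoglobin, had 153, 170, 101, 111, 56.2, 57.2, 100 and 117 CPM. Both day 2 libraries lay below all 6 others for Dsp, Dsg2, Jup, Ctnna1, Ezr and Atp1b1, 6 of 35 against 11.1% of all genes.

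The other desmosome genes were higher at day 5 or near level. Dsc2, the partner cadherin of Dsg2, had 2.11, 1.48, 3.46, 2.47, 9.35, 7.86, 38.9 and 55.3 CPM. It was the desmosome gene with the largest ratios, log2 1.42 at day 2, 4.46 in Type I and 3.95 in Type III. Pkp2, a plakophilin of simple epithelia and heart, had 23.0, 27.6, 24.3, 20.9, 29.9, 28.2, 64.5 and 54.1 CPM and was higher in Type I (log2 1.37) and Type III (1.62). Pkp3 had 4.22, 7.51, 5.68, 6.65, 7.52, 7.09, 9.80 and 7.83 CPM, and none of its 3 ratios reached 2-fold. Dsg2 passed 2-fold only in Type I (log2 1.28, and 0.82 in Type III).

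Epcam, a surface adhesion protein of epithelia and stem cells, already differed at day 2. It stood at 17.7, 18.5, 32.2, 34.5, 141, 138, 180 and 212 CPM, a 4.37-fold difference at day 2 and 6.13-fold (Type I) and 5.19-fold (Type III) differences at day 5. Ezr, ezrin, which links the apical membrane to actin and is a component of microvilli, had 409, 405, 325, 306, 249, 233, 252 and 316 CPM. None of its 3 blastoid ratios reached 2-fold, and the 4 blastoid libraries and the 2 EPSC libraries overlapped.

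The 2 water channels of the list exchanged places. Aqp3, an aquaglyceroporin that also passes glycerol, stood at 288 CPM in ESC, 266 in T09-treated ESC, 448 in EPSC, 376 in T09-treated EPSC, 14.5 in siNT, 13.3 in siNr1h2, 4.75 in Type III and 2.76 in Type I. Aqp8, a channel for water and small neutral molecules, stood at 0.422, 0.474, 0.890, 0.544, 19.2, 17.4, 171 and 114 CPM in the same order. Neither the 3 stages of Aqp3 nor those of Aqp8 overlapped, and they ran in opposite directions. Aqp3 was 30.9-fold lower at day 2, 134-fold lower in Type I and 78.4-fold lower in Type III, and Aqp8 was 20.4-fold, 192-fold and 286-fold higher. Per kilobase Aqp3 held 99.8% of the pair's level in EPSC, 38.3% in siNT and 1.94% in Type I. The summed level of the pair was itself lower in blastoids, 255 CPM per kilobase in EPSC, 21.4 in siNT, 120 in Type III and 80.3 in Type I.

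Atp1b1, the beta subunit of the sodium pump that drives cavity filling, dipped at day 2 and was high at day 5. It had 256, 281, 197, 173, 93.6, 85.1, 337 and 443 CPM, with both day 2 libraries lowest and both day 5 libraries highest. Its ratio was log2 -1.07 (-1.13 to -1.02) at day 2, 1.35 (1.31 to 1.39) in Type I and 0.96 (0.91 to 1.00) in Type III, the last just under 2-fold. Scaled by library totals alone, the day 2 ratio was -0.98 and was no longer counted as lower.

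Of 82 other genes of keratins, junctions, polarity, pumps and channels, listed by function with earlier results known, 61 were tested at day 2. Of these 18 were higher and 10 lower, against 14.5% and 11.3% of all genes, with a median log2 ratio of 0.08. In Type I 26 of 63 were higher and 11 lower, against 22.7% and 18.1% of all genes. In Type III these were 22 and 12 of 63, against 21.7% and 16%. Esrp1, a splicing factor of epithelial cells, was higher in all 3, with 0.445 CPM in EPSC, 0.568 in T09-treated EPSC, 28.2 in siNT, 48.1 in Type III and 51.3 in Type I. Ovol1, a zinc finger repressor that guards epithelial identity, was at 0 counts in EPSC and at least 22.3-fold higher in siNT. Fxyd3, a regulator of the sodium pump, was higher at day 5, with 10.8 CPM in Type I, 7.85 in Type III and 4 counts in T09-treated EPSC.

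Lower genes of that wider list came from the same families. Krt42 stood at 46.2 CPM in EPSC and 0.457 in siNT, and at 48.8 in T09-treated EPSC, 0.395 in Type III and 0 counts in Type I, at least 583-fold lower. Jam2, an adhesion molecule related to F11r, had 311 CPM in T09-treated EPSC, 7.76 in Type III and 2.12 in Type I. Krt17 had 11.1 CPM in T09-treated EPSC, 0.274 in Type III and 2 counts in Type I (log2 -6.69, -10.69 to -5.78). Atp1b2, a pump subunit, stood at 59.7 CPM in EPSC and 4.60 in siNT. F11r was thus higher at day 5 than in T09-treated EPSC, and its relative Jam2 was lower.

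The sample titles shorten Type I to Gd and Type III to Bad. Between these 2 day 5 types 32 of the 35 genes were counted as neither higher nor lower, as were 12839 of all 13907 genes tested. In Type I against Type III, 1 of 35 members was higher and 2 were lower, against 1.93% and 5.75% of all 13907 genes tested, with a median log2 ratio of 0.24 over the members and 0.01 over all genes. Krt7, at 6.16 CPM against 12.8, had a log2 ratio of -1.05 (-1.30 to -0.82), and Krt19, at 35.1 against 71.9, of -1.03 (-1.14 to -0.94). With median-ratio (RLE) size factors the Krt19 ratio was -0.99 and under 2-fold. Cldn9 was the higher gene, at log2 1.28 (0.69 to 2.01) and 2.15 CPM.

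All 4 keratins had a log2 ratio of Type I to Type III below 0, with a median of -0.63, from Krt8 at -0.07 (-0.10 to -0.05) to Krt7. Of these only Krt7 and Krt19 were counted as lower. Of the 10 tight junction membrane genes 8 were above 0, with a median of 0.49, and the exceptions were Cldn4 at -0.96 (-1.06 to -0.86) and Cldn3 at -0.41. The 3 plaque, 4 polarity and 3 adherens junction genes were all above 0, led by Pard6b at 0.75 (0.68 to 0.82). The intervals of Tjp3 (0.10, -0.03 to 0.23), Crb3 (0.06, -0.04 to 0.16) and Ctnna1 (0.02, -0.01 to 0.05) included 0. Of all 13907 genes tested 7050 were above 0. Desmosome cadherins and Dsp were above 0 (Dsc2 0.51, Dsp 0.48, Dsg2 0.46), while the plakophilins Pkp2 and Pkp3 were below (-0.25 and -0.32). Atp1b1 was above 0 (0.40), and both water channels were below (Aqp3 -0.77, Aqp8 -0.58). With 1 library per type the spread between blastoids of a type is unknown, so these leanings are a description of the pair.

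**Figure D4:**
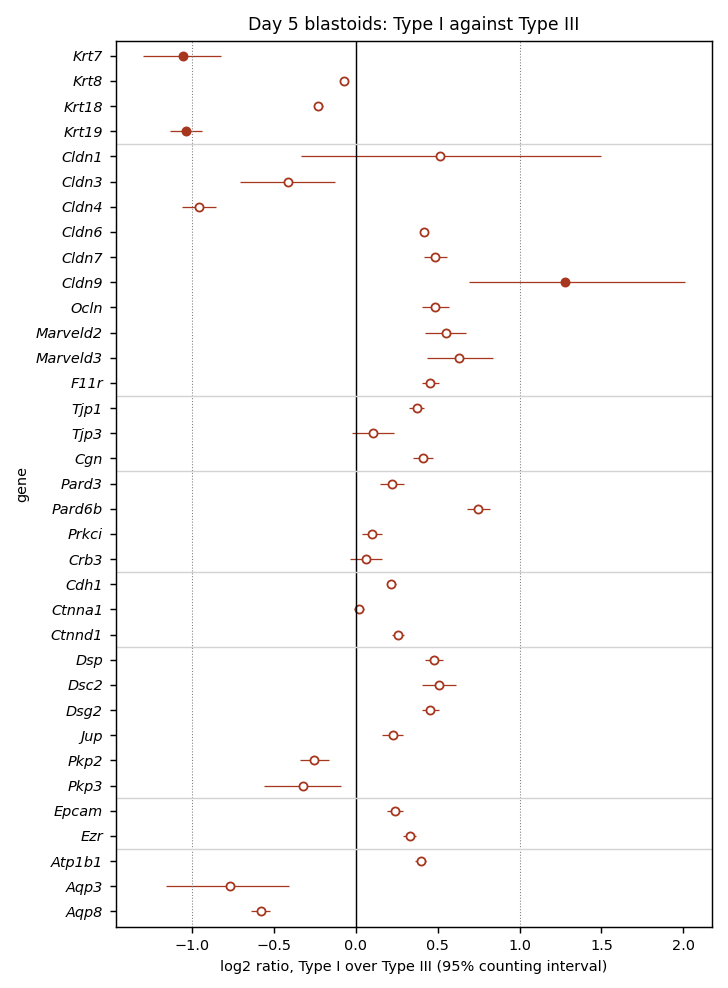
Log2 ratio of the Type I to the Type III library for each of the 35 genes, with 95% counting intervals and dotted lines at 2-fold. Filled points (Krt7, Krt19 and Cldn9) were counted as lower or higher; most junction and polarity genes lie between 0 and 0.75 and all 4 keratins lie below 0.

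The libraries of the pair also differed in cell type markers. Of 10 pluripotency markers 9 were lower in Type I, with a median log2 ratio of -1.43, and 0 of 10 primitive endoderm markers passed 2-fold, although all 10 were above 0 with a median of 0.40. Among the 9 tested trophectoderm markers Hand1, at 2.81 CPM against 16.3, was the 1 that was lower, and 0 were higher. Abca1 stood at 207 CPM in Type I and 5.38 in Type III. The part of these differences in the ratios of the 35 genes was not tested. Of the wider list, 2 of 62 were higher and 7 lower. Of all genes 1.93% were higher in Type I and 5.75% lower. Cldn5 stood at 0.139 CPM in Type I and 0.700 in Type III, and Fxyd5 at 1 and 24 counts (log2 -3.20, -10.07 to -2.10). Aqp4 (log2 1.31) and Aqp1 (1.03), channels outside the list of 35, were higher in Type I at 0.919 and 1.11 CPM.

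The knockdown pair compares day 2 aggregates with and without an siRNA against Nr1h2, the gene of liver X receptor beta. In siNr1h2 against siNT, 0 of 34 tested members were higher and 0 lower, against 1.49% and 2.17% of all genes, with a median log2 ratio of -0.10 over the members and -0.01 over all genes. The largest differences were in the tight junction membrane group, where 7 of 9 were below 0 with a median of -0.28. Of all 14127 genes tested 6583 were above 0. Marveld3 had 2.52 CPM in siNr1h2 and 4.62 in siNT (log2 -0.86, -1.31 to -0.46), Cldn7 7.70 and 12.0 (-0.64, -0.89 to -0.40), Cldn9 0.572 and 0.991 (-0.73, -1.76 to 0.10) and Cldn3 1.60 and 2.46 (-0.60, -1.18 to -0.09). Krt8 (0.09), Krt18 (-0.14), Cdh1 (-0.08) and Aqp8 (-0.14) were close to level. At a threshold of 1.5-fold 3 members were lower, Marveld3, Cldn7 and Cldn3. The share of all genes at 1.5-fold is not given here, so this count cannot be set against it. Of the wider list only Scnn1a, a sodium channel subunit, was counted, at 0.458 against 1.09 CPM. The siNr1h2 library still held Nr1h2 at 37.7 CPM against 53.9 in siNT.

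The fit over the 4 stem cell libraries compared EPSC with ESC, with T09 as a covariate and 1 residual degree of freedom. By edgeR's quasi-likelihood test with Benjamini-Hochberg adjustment over 14477 genes, 13 of 33 tested members fell and 5 rose from ESC to EPSC, against 14.5% and 14.3% of all genes. The median log2 change was -0.19 over the members and 0.00 over all genes. Krt7 and Cldn1 were too low to be tested. Of the 9 tested tight junction membrane genes 5 fell and 0 rose, and of the 3 tested keratins 2 fell and 0 rose.

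Cldn3 fell furthest, by 3.84 on the log2 scale (SE 0.39, adjusted p = 0.0001047 by edgeR), from 7.14 and 8.45 CPM in untreated and treated ESC to 0.812 and 0.321 in EPSC. Ocln fell by 2.70 (SE 0.20, edgeR adjusted p = 1.829e-05), Krt8 by 1.52 (SE 0.28, 0.003477) and Krt18 by 1.12 (SE 0.30, 0.01929). Marveld3 (log2 -1.86), Crb3 (-1.68), Cldn4 (-0.91), F11r (-0.77), Cdh1 (-0.77), Dsg2 (-0.70), Jup (-0.62), Atp1b1 (-0.55) and Ezr (-0.38) also fell. For Cdh1, a hallmark of the epithelial state, this was 923 and 971 CPM in the ESC libraries against 611 and 516 in the EPSC libraries.

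Among the genes that rose, Dsp rose by 1.23 on the log2 scale (SE 0.29, edgeR adjusted p = 0.01099), Cgn by 0.97 (SE 0.16, 0.002114), Epcam by 0.87 (SE 0.13, 0.001196), Aqp3 by 0.56 (SE 0.10, 0.003642) and Prkci by 0.48 (SE 0.12, 0.01613). In none of these 5 did the ESC and EPSC libraries overlap. The Dsp difference was uneven, with a log2 ratio of 2.03 between the untreated libraries and 0.46 between the treated ones. Cldn6, Krt19, Aqp8, Tjp1, Pard3 and Ctnna1 were among the 15 tested genes that did not pass. Of the marker lists in the same fit, 6 of 9 primitive endoderm markers rose and 0 fell (median log2 change 2.03), 4 trophectoderm markers rose and 4 fell of 8, 5 of 10 pluripotency markers fell and 0 rose, and 3 of 12 mesenchymal markers rose and 4 fell. Of all genes 14.3% rose and 14.5% fell in that fit. The part of these markers' cell types in the changes of the 35 genes was not tested.

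**Figure D5:**
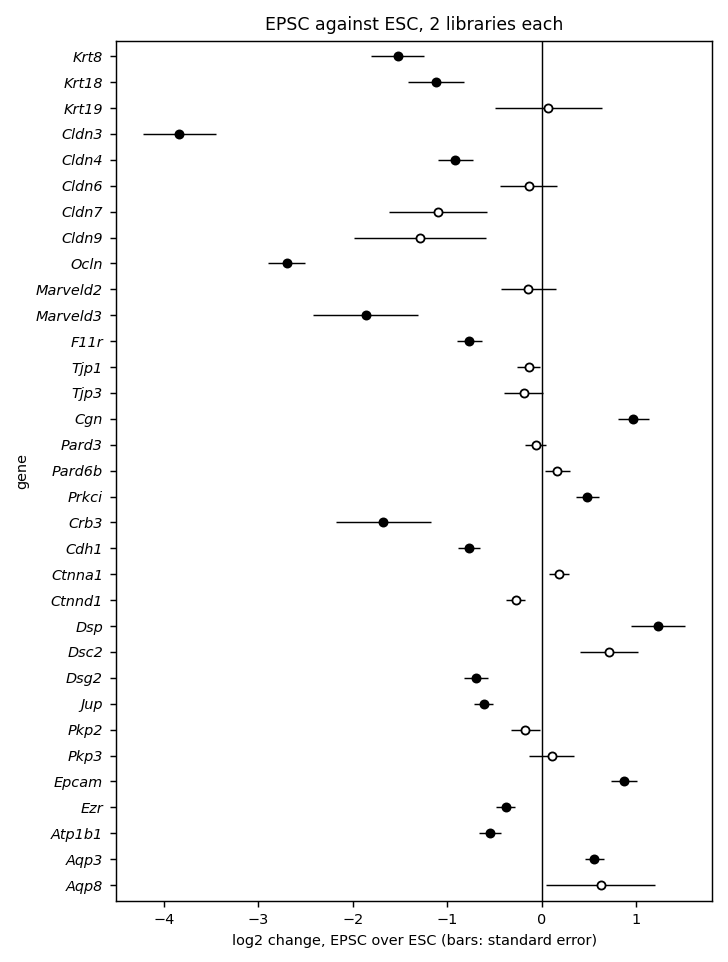
Log2 change from ESC to EPSC over the 4 stem cell libraries for the 33 tested genes, with bars of 1 standard error. Filled points had an adjusted p under 0.05 in the edgeR fit; Cldn3, Ocln, Marveld3, Crb3 and the keratin pair lie to the left and Dsp, Cgn and Epcam to the right.

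Several of these calls depended on the fit. DESeq2 kept 14 of the 18 calls and lost Krt18, Marveld3, Crb3 and Dsp, and a fit of state alone on all 4 libraries lost Crb3 (log2 -1.76). In fits of state alone on 3 libraries, in which the lone library is assumed to vary like the others, Marveld3 lost its call without each of the 4 libraries, at log2 -1.61 to -2.16. Crb3 lost it without EPSC (-1.22), T09-treated EPSC (-2.66) or T09-treated ESC (-0.46), Krt18 without T09-treated EPSC (-1.01) or T09-treated ESC (-0.94), Prkci without EPSC (0.39) or ESC (0.37), and Ezr without T09-treated EPSC (-0.34), ESC (-0.38) or T09-treated ESC (-0.39). Without EPSC the Dsp change was 0.72 and still passed.

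Of the wider list 11 of 58 genes rose and 7 fell, against 14.3% and 14.5% of all genes. Cldn11 (log2 3.62, edgeR adjusted p = 0.02292) and Grhl2 (3.32, 1.913e-05), an activator of epithelial genes, rose most. Esrp2 (-2.06, 0.0001019), a splicing factor of epithelial cells, Jam3 (-1.33, 0.0002249) and Msn (-1.09, 6.535e-05), the relative of Ezr, fell most.

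The T09 libraries compare cells with and without the liver X receptor agonist in both stem cell states. The fit has 1 T09 coefficient shared by both states, so opposite changes in ESC and EPSC offset each other in it. By pairs of libraries 10 members had ratios of opposite sign, with both counting intervals away from 0. In the same edgeR fit 0 of 33 members passed an adjusted p of 0.05 for T09, against 0.104% of all genes. DESeq2 and limma-voom also called 0. At an unadjusted edgeR p under 0.05, 1 member rose and 0 fell, against 316 and 563 of all 14477 genes. The member that rose was Crb3, with a log2 change of 1.75 (SE 0.50, edgeR adjusted p = 0.5345). Crb3 stood at 0.603 and 2.37 CPM in untreated and treated ESC and at 0.236 and 0.642 in EPSC. Its counts in EPSC were 9 and 26.

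By pairs of libraries, T09 in ESC gave 3 members higher and 0 lower of 32 tested, against 1.39% and 2.53% of all genes, with a median log2 ratio of 0.19 over the members and 0.01 over all genes. These were Crb3 (log2 1.88, 1.26 to 2.76), Krt19 (1.17, 0.42 to 2.16) and Cldn7 (1.17, 0.50 to 2.02), the last pair at 1.23 and 1.56 CPM. In EPSC 1 member was higher, Crb3 (1.27, 0.31 to 2.73), and 1 lower, Cldn3 (-1.21, -2.40 to -0.36), of 31 tested, against 0.895% and 3.29%, with medians of -0.19 and 0.00. With a prior count of 10 only Crb3 in ESC was still counted. Of the tested members 26 of 32 were above 0 in ESC and 7 of 31 in EPSC. Of all genes tested, 6872 of 13412 were above 0 in ESC and 6787 of 13632 in EPSC. Outside the 35, Krt17 was higher in treated ESC (7.03 against 1.72 CPM), and in treated EPSC Ovol2 was higher (1.11 against 0.419).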

How the data were processed

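The deposited table held raw counts of reads per gene symbol, as whole numbers, for 24888 genes in 8 columns, of which 0 belonged to no sample, and 5090 genes had no count. Per the submitters' processing notes, STAR, Cuffnorm, HTSeq and build mm9 were used; roles, versions, annotation and strand setting were not given in the sources used here, so reads of overlapping genes and close paralogs may be shared. The libraries came from total RNA and a directional kit, per the labels' protocols.

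Counts were scaled by TMM in edgeR 4.0.16 (R 4.3.3). In 7 comparisons of 2 libraries a ratio with prior count 2 was called at 2-fold or more with a 95% exact interval that excluded 1 and at least 20 counts in 1 library; a floor of 3 counts gave bounds against 0, and intervals and floors cover counting error only. A count of 0 allows up to 0.0741 to 0.114 CPM. State and T09 were fitted by edgeR's quasi-likelihood test on 4 libraries after filterByExpr, with a threshold of 0.05 on adjusted p. Nothing says that these libraries came from separate cultures. With 1 library per state and treatment, the residual is the departure from additive effects of state and T09, moderated over genes. The p-values are set against that departure and not against a spread between replicates. Both procedures were tested on simulated data, with counting error only for the ratios and 1 common dispersion for the fit. Those runs do not show how the procedures fare under variation between cultures. Lengths are of the APPRIS principal transcript in GENCODE on GRCm38. Alternatives were RLE factors, library totals, no minimum, 1.5-fold, prior count 10, an assumed biological variation of 0.2, no filter, DESeq2 1.42.0, limma-voom 3.58.1, state alone and each library left out. All 35 genes were named; of the 82 wider genes, up to 3 called with the largest change in each direction per comparison, and of the marker lists the sums and counts. Some genes of the wider list that this rule names are not reported here. The genes and lists were chosen with earlier results of these data known.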

Additional observations from a re-analysis of the deposited data

Results flagged for a closer look

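Of the 35 genes, 10 had a T09 ratio of opposite sign in the stem cell states with both counting intervals away from 0, and for 2 of them both ratios were at least 1.5-fold. Krt8 had a log2 ratio of 0.62 (0.46 to 0.78) in ESC, at 23.2 CPM treated and 15.1 untreated, and of -0.70 (-0.97 to -0.45) in EPSC, at 5.11 and 8.35, a difference of 1.32. Dsp had 0.61 (0.51 to 0.70) in ESC, at 67.2 and 44.1 CPM, and -0.97 (-1.03 to -0.91) in EPSC, at 92.3 and 181, a difference of 1.58. With 1 library per group the difference between states was not tested, and none of these 4 ratios reached 2-fold. The share of all genes with opposite signs was not counted. Among the 10, Tjp1 had log2 0.05 (0.0004 to 0.1026) in ESC, so at high counts an interval away from 0 can go with a small ratio.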

How the results depend on the processing

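Over the genes counted as higher, lower, risen or fallen, 575 of 600 recomputed calls were kept under the alternatives tried, 25 were lost and 0 reversed. That total includes the settings without a count minimum and at 1.5-fold. Both only loosen the rule and could lose no call, so the 73 of 73 kept in each say nothing about robustness. At 1.5-fold, 6 members were higher with T09 in ESC (3 at 2-fold) and 3 lower in EPSC (1), 3 were lower with the knockdown (0), 3 higher and 4 lower in Type I against Type III (1 and 2), and 6 lower at day 2 (3). With a prior count of 10, 1 member was higher with T09 in ESC, and 0 were higher and 0 lower in EPSC. With RLE factors 1 was lower in Type I against Type III. The shares of all genes under these alternatives are not given here, so the shifts in member counts cannot be set against them. The counts of the other comparisons, those of Type I and Type III against T09-treated EPSC included, stayed within 1.5 times. For the state effect, leaving out each library gave 4 to 5 members risen and 9 to 11 fallen. The cause of these shifts was not tested. The T09 fit had state as a covariate and so compared treated with untreated libraries within each state; the labels give no replicate numbers, so no further pairing was fitted. Depth limits Cldn1, Krt7, Cldn9, Crb3 and Marveld3, which had under 10 counts in at least 1 library.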
